A study of Mus musculus with 234 samples.

Results

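Ppargc1a (PGC-1α) and 8 further regulators of mitochondrial biogenesis were followed through single cardiomyocytes (CMs) of mice that express the human co-chaperone BAG3 with the P209L exchange. The 9 members are Ppargc1a, Ppargc1b, Perm1, Ppara, Esrra, Esrrb, Esrrg, Nrf1 and Tfam, taken by name from the 55538 features of the count table, and each of them had counts in all 8 sums made per mouse and class. Ppargc1a was singled out for its lower level in homozygous bright than in control CMs. That comparison is therefore given for the members as a description without a test.

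PGC-1α and its relative PGC-1β (Ppargc1b) are coactivators: they bind no DNA themselves but dock onto transcription factors. Among these are PPARα (Ppara), which switches on fatty acid oxidation genes, the estrogen-related receptors ERRα, ERRβ and ERRγ (Esrra, Esrrb, Esrrg), which act on genes of oxidative metabolism, and nuclear respiratory factor 1 (Nrf1). Perm1 is a muscle regulator that PGC-1 and ERR proteins induce, and Tfam packages mitochondrial DNA and activates its transcription. In the heart the circuit is known for the postnatal switch to fatty acids as the main fuel.

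CMs were picked by hand from Langendorff-dissociated hearts of 5 mice, and 234 cells were sequenced with SMART-seq2, a whole-transcript method without molecular identifiers. Control cells came from Mouse_26 (24 cells) and Mouse_73 (9 cells), with strain C57BL/6 in the labels; the study describes its controls as siblings that were wild type or carried only PGK-Cre or only the unrecombined transgene. Homozygous PGKcre:BAG3P209L cells, classed as bright or dim in eGFP under a fluorescence macroscope, came from Mouse_25 (21 bright, 18 dim) and Mouse_116 (59 bright, 50 dim), and heterozygous cells from Mouse_72 (27 bright, 26 dim). The transgene is a BAG3-eGFP fusion driven by the CAG promoter from the Rosa26 locus of a line that goes back to 1 embryonic stem cell clone, with a floxed stop that PGK-Cre removes. Hearts were taken at 2 weeks of age by the published methods. For Mouse_72 no age is given in the sources used here.

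A cell held 487 to 1392253 counts (median 711527), and a sum 4096609 (control Mouse_73) to 40508124 (bright cells of Mouse_116). Fewer than 1000 genes were detected in 15 of the 234 cells, 4 of them among the 24 cells of control Mouse_26. All 8 cardiomyocyte markers were detected in every sum, with a summed level of 69769 to 91882 counts per 1000000 counts (CPM). That level was lower in the 4 homozygous sums (69769 to 75816) than in control Mouse_26 and Mouse_73 (79333 and 88483), as Ppargc1a was. Summed markers of other cell types ran from 33.0 to 2473 CPM for fibroblasts (highest in bright cells of Mouse_25), 46.0 to 142 for endothelial cells (142, 140 and 133 in the dim class of Mouse_25, Mouse_116 and Mouse_72, 46.0, 59.7 and 73.4 in the bright class, and 48.9 and 112 in control Mouse_26 and Mouse_73), 0.264 to 57.3 for immune cells (highest in dim cells of Mouse_25 and Mouse_116, 57.3 and 49.6) and 0.173 to 986 for erythroid cells (highest in Mouse_72 cells labelled bright); Ptprc was at 0 in 6 sums and Pdgfra in 3. Their part in the results was not tested. Transgene counts (hBAG, human BAG3) were 294 and 233 CPM in bright cells of Mouse_25 and Mouse_116, 10.7 and 99.6 in their dim cells, and 0.408 (8 counts) and 0.488 (2 counts) in control Mouse_26 and Mouse_73. In Mouse_72 they went against the labels: cells labelled bright had 105 CPM and cells labelled dim 251 CPM, and BAG-eGFP showed the same order (62.1 and 208).

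The start of the Ppargc1a gene and that of Perm1, the 2 members with an unadjusted p under 0.05 in dim cells, are shown first, followed by the 3 short stretches in which searched motifs lie near the start of other members. The sequences come from RefSeq on GRCm38.p6, in which 8 of the 9 members were matched with 13 promoter windows of 300 bases. They read 5′ to 3′ on the strand of the gene, and the 2 longer ones end before the first base that RefSeq or GENCODE M21 assigns to a transcript of the gene. Capitals mark searched motifs.
Ppargc1a, chr5:51567727-51567975, minus strand: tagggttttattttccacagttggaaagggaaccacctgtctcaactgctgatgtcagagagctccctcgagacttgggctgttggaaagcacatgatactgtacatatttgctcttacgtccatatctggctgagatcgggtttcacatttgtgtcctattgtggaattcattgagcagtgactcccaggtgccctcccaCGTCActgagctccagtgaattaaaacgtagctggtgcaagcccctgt
Perm1, chr4:156215677-156215867, plus strand: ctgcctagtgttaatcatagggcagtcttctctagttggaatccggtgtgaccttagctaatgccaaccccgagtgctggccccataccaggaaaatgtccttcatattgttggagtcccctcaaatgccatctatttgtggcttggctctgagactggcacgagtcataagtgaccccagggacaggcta
Ppara, chr15:85735735-85735764, plus strand: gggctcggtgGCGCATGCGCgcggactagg
Tfam, chr10:71238073-71238102, minus strand: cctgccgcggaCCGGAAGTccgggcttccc
Esrrg, chr1:187608974-187609003, plus strand: taaaactttgCTATTTATAGtctacgcccg

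Each motif was searched on both strands of the whole 300-base window (250 bases before to 50 after the start), among 32851 mouse promoter windows. The nuclear respiratory factor motif, the capitals of the Ppara stretch with any base at the sixth place, is held by 4.6% of all windows and was found in Ppara, 31 bases before the start. The GABP motif CCGGAAGT (3.89% of windows) was found in Tfam, 47 bases before the start, and the MEF2 motif, the capitals of the Esrrg stretch (0.164%), in 1 of the Esrrg windows, 22 bases before the start. The half-site of the cAMP response element, CGTCA (20.8% of windows), was found in Ppargc1a, 49 bases before the start, in 1 Esrrb window and in Ppara; the full element TGACGTCA (1.79%), which contains the half-site, and the ERR element TCAAGGTCA (0.423%) were found in no member window. The searched letters do not occur in the Perm1 window. A match describes the letters only.

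Ppargc1a was by far the most abundant of the 9 transcripts per length. Divided by the union of its exons in GENCODE M21, its level averaged 131 CPM per kilobase in control cells, followed by Perm1 (47.9), Ppargc1b (12), Tfam (5.76), Ppara (5.61), Esrra (2.95), Esrrg (2.7), Esrrb (2.02) and Nrf1 (0.696). No exon base of Ppargc1a, Ppargc1b, Perm1, Ppara, Esrrb, Esrrg, Nrf1 or Tfam is shared with another gene of that annotation; of Esrra, 3.74% is shared, with a microRNA gene and the antisense Trmt112.

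Ppargc1a was lower in all 6 transgenic sums than in both control mice. Its level, as CPM scaled over all 8 sums by TMM (normalized CPM, used for all levels by sum below), was 944 and 1020.4 in control Mouse_26 and Mouse_73, 227 in the bright cells of both Mouse_25 and Mouse_116, 303 and 325 in their dim cells, and 446 and 378 in the cells of Mouse_72 labelled bright and dim. The order of the group levels was control, heterozygous labelled bright, heterozygous labelled dim, homozygous dim and homozygous bright. No neighbouring groups in this order overlapped, although the heterozygous values come from 1 mouse.

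**Figure D1:**
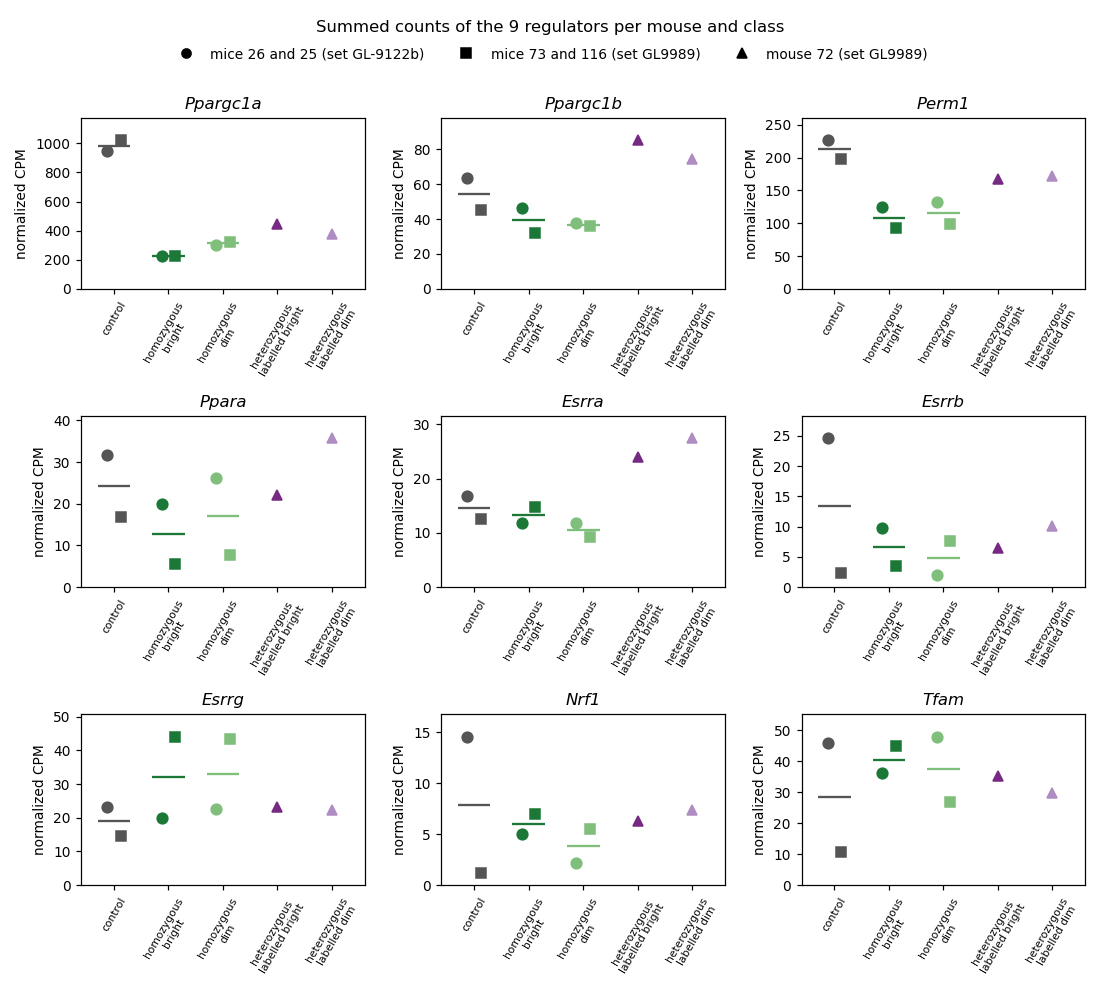
Normalized CPM (TMM over the 8 sums, linear axes from 0) of the 9 regulators; each point is the summed counts of 1 mouse and class, bars are means of 2 mice, and symbols give the mouse and library set. Ppargc1a lies at 944 and 1020.4 in control cells and between 227 and 446 in the transgenic sums, whereas Esrrg separates Mouse_116 from the other mice and Nrf1, Esrrb and Tfam lie far apart in the 2 control mice.

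In homozygous bright against control CMs, the comparison in which Ppargc1a was chosen, its log2 fold change was -2.14 (SE 0.27, n = 2 mice per group), a level 4.40-fold lower. Within the library sets named in the sample titles it was -2.04 (Mouse_25 against Mouse_26) and -2.22 (Mouse_116 against Mouse_73). Mouse_116 and Mouse_73 lay on different plates of their set. The other members with a negative value were Esrrb (-1.02, SE 1.32), Perm1 (-0.99, SE 0.33), Ppara (-0.95, SE 0.89), Ppargc1b (-0.49, SE 0.47), Nrf1 (-0.41, SE 1.39) and Esrra (-0.16, SE 0.78). Esrrg (0.73, SE 0.69) and Tfam (0.50, SE 0.75) had positive values. In this fit 2 of 12203 genes were called (0.0164%), both features of the transgene. The 3 members whose bright sums both lay below both control sums were Ppargc1a, Perm1 and, on the scale of these 4 sums only, Ppargc1b. Over all genes 14.8% did so. These members were chosen with this contrast known, and nothing is read from that count.

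Dim CMs were compared with the same 2 control mice and come from the same 2 hearts as the bright CMs. The values below are therefore not independent of the choice of Ppargc1a and are no repeat of the bright comparison. Ppargc1a had a log2 fold change of -1.66 (SE 0.29, 3.16-fold lower) and values of -1.64 and -1.68 within the library sets. The edgeR unadjusted p, 0.000891, ranked 3 of 12195 genes, but the adjusted p was 0.735, and no gene was called (percent called 0; 759 genes had an unadjusted p under 0.05). Perm1 had a log2 fold change of -0.89 (SE 0.34, edgeR unadjusted p = 0.037, adjusted p = 0.752), with -0.78 and -1.03 within the library sets. No member was called, and these 2 of 9 had an unadjusted p under 0.05, against 6.22% of all genes (1.83% with a lower level). Both dim sums lay below both control sums for 4 of 9 members (Ppargc1a, Perm1, Ppargc1b and Esrra), against 14.2% of all genes.

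The call for Ppargc1a in dim cells depended on the fit and on 1 mouse. It passed the threshold with DESeq2 (adjusted p = 0.00108), without a filter on counts (edgeR, 0.0116), with the library set as a block (edgeR, 0.0114) and without control Mouse_26 (log2 fold change -1.72, edgeR adjusted p = 0.0399, with control Mouse_73 alone, which is assumed to vary like the dim mice); over 14 alternatives the log2 fold change ranged from -1.88 to -0.88 and the adjusted p from 0.00108 to 1.00. The smallest change came from giving each cell equal weight, shallow cells included; under that setting Perm1 had the opposite sign (0.19), and with cells under 1000 genes left out, a choice made after seeing the data, it was -0.80.

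**Figure D2:**
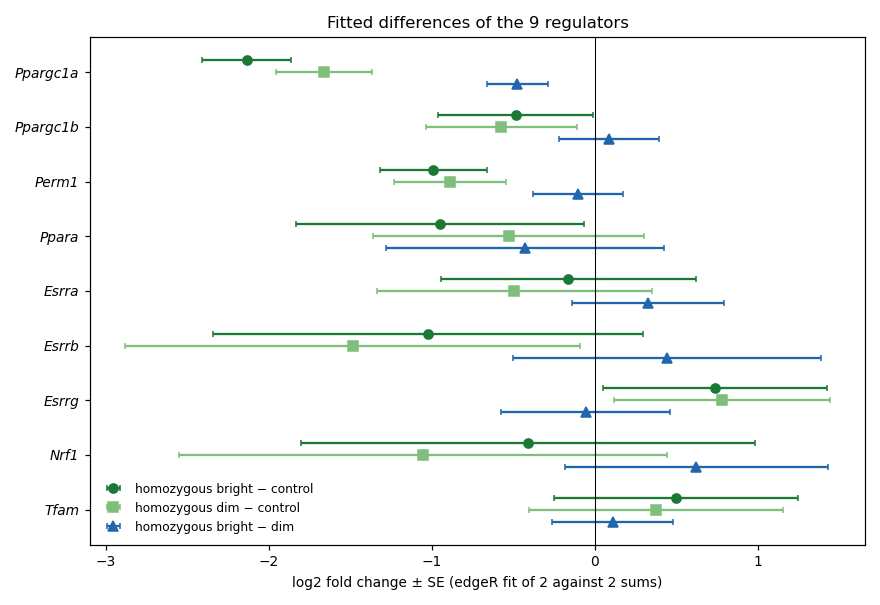
Log2 fold changes with standard errors (bars) of the 9 regulators from the edgeR fits of 2 against 2 sums; the bright and dim comparisons with control use the same 2 control mice. The first of these is the comparison in which Ppargc1a was chosen. Ppargc1a lies at -2.14 in bright and -1.66 in dim cells and Perm1 at -0.99 and -0.89, and the values for Esrrb and Nrf1 have standard errors above 1 there.

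Ppargc1a was lower in bright than in dim cells of both homozygous hearts, but the difference was not called. Its p-values use the bright cells in which Ppargc1a was chosen and are not independent of that choice. The log2 fold change of bright against dim CMs was -0.48 (SE 0.19, n = 2 mice), with -0.42 in Mouse_25 and -0.53 in Mouse_116, and it was -1.08 with each cell weighted equally. The edgeR unadjusted p was 0.046 and the adjusted p 0.999, and no gene was called among 13439 (percent called 0; 554 genes, 4.12%, had an unadjusted p under 0.05, 2.09% with a lower level in bright cells). The other members did not reach an unadjusted p of 0.05. Perm1 was nearly level (-0.10, SE 0.27), and Esrra, lower in dim cells of Mouse_116 only, had 0.33 (SE 0.47). Bright and dim sums did not overlap for Ppargc1a (lower in bright; 16% of all genes) and Esrra (higher in bright; 15.1%, with a log2 difference of 0.000276 in Mouse_25).

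In Mouse_72 the difference between the labelled classes ran the other way, as the transgene counts did. Cells labelled bright had 423 CPM and cells labelled dim 390 CPM before scaling, a ratio of 1.09 (exact 95% interval 1.05 to 1.13, counting error only). Within each of the 3 transgenic mice the class with more transgene counts had less Ppargc1a. In Mouse_25 and Mouse_116 that class is the bright one, in which Ppargc1a was chosen, and a link to the transgene was not tested. Between mice the levels did not follow the transgene counts: dim cells of Mouse_25 had 10.7 CPM of hBAG and a Ppargc1a level of 303, and Mouse_72 cells labelled dim had 251 CPM of hBAG and a level of 378. Against control Mouse_73 of the same plate, the ratio was 0.493 (0.473 to 0.514) for cells labelled bright and 0.454 (0.435 to 0.474) for cells labelled dim.

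The lower Ppargc1a level was seen in most single cells. Among cells with at least 1000 genes, the level ranged from 268 to 1872 CPM with a median of 686 in the 20 cells of control Mouse_26, and from 320 to 1987 CPM with a median of 678 in the 8 cells of control Mouse_73. The median was 215 and 229 CPM in bright cells of Mouse_25 and Mouse_116, 317 and 331 in their dim cells, and 401 and 352 in cells of Mouse_72 labelled bright and dim. In the classes not used to choose Ppargc1a, 18 of 18 and 43 of 48 dim cells of Mouse_25 and Mouse_116 lay below the control median of 686 CPM, as did 23 of 24 and 23 of 25 cells of Mouse_72 labelled bright and dim. Of the bright cells, in which it was chosen, 20 of 20 and 54 of 56 did. All 28 control cells had counts, and 2 of 56 bright cells of Mouse_116 had none.

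**Figure D3:**
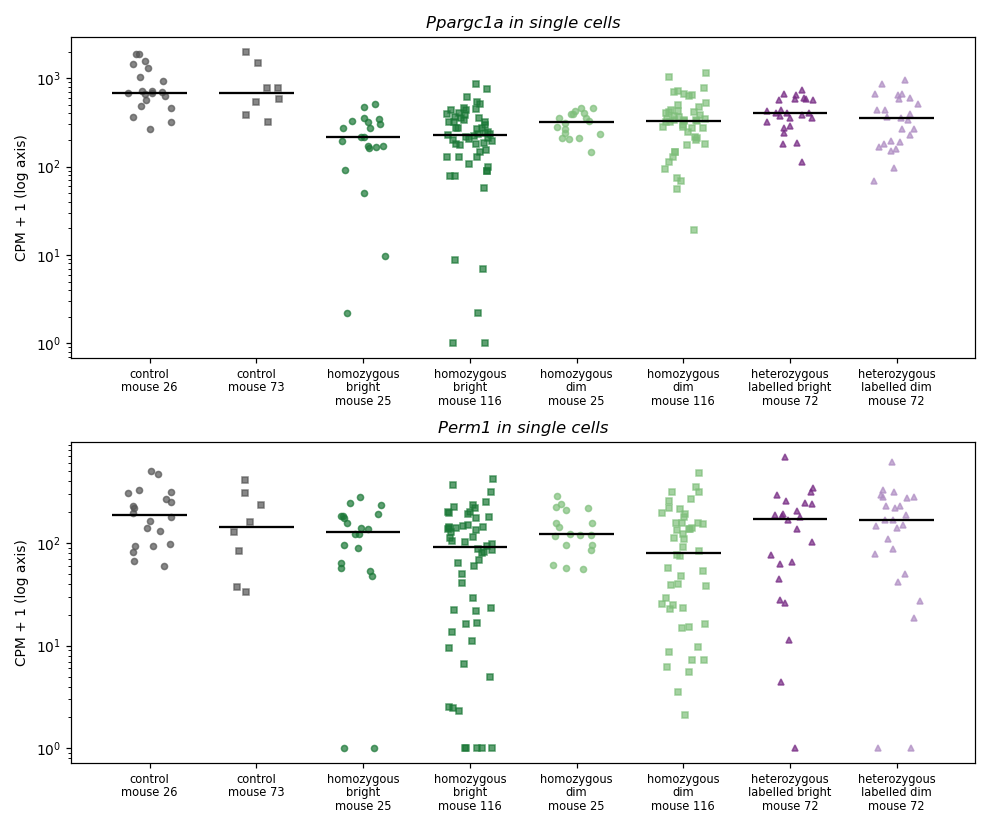
Ppargc1a and Perm1 in single cells with at least 1000 detected genes (CPM + 1, log axis; points are cells, bars medians per mouse and class). For Ppargc1a 18 of 18 and 43 of 48 dim cells of Mouse_25 and Mouse_116 lie below the control median of 686 CPM, and for Perm1 13 of 18 and 37 of 48 lie below that of 171 CPM. For Perm1 9 of 20 and 5 of 8 cells of control Mouse_26 and Mouse_73 lie below that median too.

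Plates differed within Mouse_116, whose cells lay on 2 plates of library set GL9989. Bright cells had 340 CPM of Ppargc1a on plate GL9989-2 and 162 on plate GL9989-3, and dim cells 433 and 243 CPM. The bright level was thus below the dim level on both plates, and the gap between plates was wider than that between the classes. All 4 values lay below the 859 CPM of control Mouse_73 on plate GL9989-1. Mouse_116 and control Mouse_73 shared no plate, so within set GL9989 a difference between plates cannot be told apart from one between these mice. With Mouse_116 taken from plate GL9989-2 alone, a choice made after seeing the data, the log2 fold change of dim against control cells was -1.51, and from plate GL9989-3 alone -1.88.

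Perm1 had the pattern most like that of Ppargc1a among the members. Its level was 226 and 198 in control Mouse_26 and Mouse_73, 124 and 92.4 in bright cells of Mouse_25 and Mouse_116, 133 and 99.5 in their dim cells, and 167 and 171 in cells of Mouse_72 labelled bright and dim. The control sums were highest and all 4 homozygous sums lowest, with Mouse_72 between them. In single cells 13 of 18 and 37 of 48 dim cells of Mouse_25 and Mouse_116 lay below the control median of 171 CPM, and 12 of 24 and 14 of 25 cells of Mouse_72 labelled bright and dim. Of the control cells themselves, 9 of 20 of Mouse_26 and 5 of 8 of Mouse_73 lay below that median. Before scaling, the ratios of Mouse_72 cells labelled bright and dim to control Mouse_73 were 0.948 (0.869 to 1.03) and 1.06 (0.973 to 1.16), and those to control Mouse_26 were 0.765 (0.726 to 0.806) and 0.855 (0.813 to 0.90).

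Ppargc1b, which shares many targets with Ppargc1a, was highest in the heterozygous heart. Its level was 63.4 and 44.9 in control Mouse_26 and Mouse_73, 46.2 and 32.2 in bright cells and 37.8 and 35.8 in dim cells of Mouse_25 and Mouse_116, and 85.0 and 74.1 in cells of Mouse_72 labelled bright and dim. The dim sums lay below the control sums, with a log2 fold change of -0.58 (SE 0.46, edgeR adjusted p = 0.991). Against control Mouse_73 the unscaled ratio in Mouse_72 was 2.13 (1.80 to 2.54) for cells labelled bright, and against control Mouse_26 it was 1.39 (1.28 to 1.51). In control Mouse_73, 1 cell held 44.5% of the 155 counts of Ppargc1b, and the interval does not cover such differences between cells.

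Among the nuclear receptors, Ppara and Esrrg differed more between the 2 homozygous mice than between their bright and dim cells. Ppara was 31.6 and 16.8 in control Mouse_26 and Mouse_73, 19.9 and 5.5 in bright cells and 26.2 and 7.76 in dim cells of Mouse_25 and Mouse_116, and 22 and 35.7 in Mouse_72 cells labelled bright and dim. Mouse_116 was lowest in both classes, and its bright cells had Ppara counts in 21 of 59 cells. The difference of dim from control cells was -0.53 (SE 0.83, edgeR adjusted p = 0.999), and without the dim sum of Mouse_116 it was 0.094.

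Esrrg split by mouse as well, in the opposite direction. It was 44.1 and 43.4 in bright and dim cells of Mouse_116, 19.8 and 22.5 in those of Mouse_25, 23.3 and 14.5 in control Mouse_26 and Mouse_73, and 23.3 and 22.3 in Mouse_72 cells labelled bright and dim. The 2 classes of a heart thus lay close together, whereas Mouse_116 had the highest values. A log2 fold change of 0.78 (SE 0.66, edgeR adjusted p = 0.991) for dim against control cells combined -0.06 and 1.55 within the library sets.

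Esrra was highest in the heterozygous heart, at 23.9 and 27.4 in cells labelled bright and dim, against 16.9 and 12.5 in control Mouse_26 and Mouse_73, 11.9 and 14.7 in bright cells and 11.9 and 9.22 in dim cells of Mouse_25 and Mouse_116. The homozygous and control values lay close together, with a log2 fold change of -0.49 (SE 0.84, edgeR adjusted p = 0.999) for dim against control cells. Against control Mouse_73 the unscaled ratio of Mouse_72 was 2.17 (1.57 to 3.05) for cells labelled bright and 2.69 (1.96 to 3.78) for cells labelled dim, but control Mouse_73 had counts of Esrra in 3 of 9 cells, and 1 cell held 69.8% of them.

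For Esrrb, Nrf1 and Tfam the 2 control mice lay far apart, and the comparisons with control were imprecise. Esrrb was 24.6 and 2.32 in control Mouse_26 and Mouse_73 (440 and 8 counts), 9.78 and 3.55 in bright cells and 2.05 and 7.68 in dim cells of Mouse_25 and Mouse_116, and 6.38 and 10.1 in Mouse_72 cells labelled bright and dim. Nrf1 was 14.6 and 1.16 in the control mice (261 and 4 counts), 4.99 and 6.97 in bright, 2.15 and 5.55 in dim cells, and 6.31 and 7.36 in Mouse_72. Counts of Nrf1 were present in 5 of 24 and 2 of 9 control cells, so that few cells carried each sum. Tfam was 46.0 and 10.7 in the control mice, 36.3 and 44.8 in bright, 48.0 and 26.9 in dim cells, and 35.2 and 29.8 in Mouse_72; in control Mouse_73, 1 cell held 86.5% of its 37 counts. For dim against control cells the 2 library sets gave -3.59 and 1.70 for Esrrb, -2.76 and 2.23 for Nrf1, and 0.05 and 1.30 for Tfam, and the fitted values of -1.49 (SE 1.39), -1.05 (SE 1.5) and 0.38 (SE 0.78) lay between these opposite or unequal differences.

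Over the 8 sums Perm1 was the member most like Ppargc1a, with a Pearson correlation of log2 CPM of 0.859, rank 97 of 16614 genes. Ppara (0.402), Ppargc1b (0.398), Esrrb (0.167) and Esrra (0.164) were less alike, and Tfam (-0.519) and Esrrg (-0.544) ran against it. Nrf1 had no clear direction (-0.121, with a Spearman correlation of 0.095). The 5 genes of all 16614 with the highest correlation were Lyar (0.972), Kcnip2, a subunit of cardiac potassium channels (0.958), Mthfsl (0.956), Rpl3l, a ribosomal protein of striated muscle (0.945), and Pln, the inhibitor of the sarcoplasmic calcium pump (0.940). Rpl3l, for example, was 139 and 131 in control Mouse_26 and Mouse_73, 29.7 and 23.4 in bright and 57.0 and 61.0 in dim cells of Mouse_25 and Mouse_116, and 63.2 and 62.0 in Mouse_72. These correlations describe 8 sums from 5 mice, which share animals and library sets. In single cells within a sum the members were only weakly related to Ppargc1a, with median Spearman correlations from -0.15 (Nrf1) to 0.19 (Ppargc1b) over the 8 sums. The relation of Ppargc1a to transgene counts over cells within a transgenic sum was weak too, between -0.12 and 0.37 in 18 to 56 cells.

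Genes on either side of the 9 regulators were examined in 5 lists, and no gene of any list passed an adjusted p of 0.05 in the comparisons of homozygous bright or dim with control or with each other (edgeR). Of 16 genes whose products act on Ppargc1a, 13 had a positive and 3 a negative log2 fold change in dim against control cells, with a median of 0.26 and none with an unadjusted p under 0.05; over all 12195 genes 54.2% were above and 45.8% below 0, with a median of 0.10. The AMP-activated kinase subunit Prkaa2 was 123 and 137 in dim cells of Mouse_25 and Mouse_116 and 98.7 and 160 in control Mouse_26 and Mouse_73 (normalized CPM of that comparison, as for the genes below). The transcription factor Mef2a had 145 and 175 against 108 and 121, the calcium-dependent kinase Camk2d 182 and 256 against 154 and 166, and the deacetylase Sirt1 8.0 and 13.7 against 2.59 and 0.284. The Sirt1 value of control Mouse_73 lay below the level of 3 counts in that sum (0.732 CPM before scaling), so its difference is imprecise. Of the 16 genes, 6 had both dim sums above both control sums and 2 had both below, against 23.8% and 14.2% of all genes.

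Among 19 partner receptors, coactivators and corepressors, 10 had a positive and 9 a negative log2 fold change in dim cells, with a median of 0.16. Of these 19, 2 had an edgeR unadjusted p under 0.05, against 6.22% of all genes. Lpin1, whose product can act with PGC-1α and PPARα, was 72.2 and 67.5 in dim and 51.5 and 45.6 in bright cells of Mouse_25 and Mouse_116, against 231 and 102 (dim comparison) or 229 and 104 (bright comparison) in control Mouse_26 and Mouse_73. Its log2 fold change was -1.25 (SE 0.47, edgeR unadjusted p = 0.033, adjusted p = 0.735) in dim cells, and no homozygous value reached the lower control value. Prox1, a partner of ERRα, was 72 and 73.1 in dim against 35.7 and 35.3 in control cells (log2 fold change 1.03, SE 0.42, edgeR unadjusted p = 0.044, adjusted p = 0.768). The coactivator Pprc1 (5.37 and 3.09 against 3.89 and 2.84), the receptor Rxra (5.57 and 8.78 against 7.02 and 8.24), Gabpa (21.7 and 25.6 against 30.2 and 3.98) and the corepressor Nrip1 (12.6 and 24.5 against 21.8 and 47.5) overlapped between dim and control cells.

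Genes for the transcription and copying of mitochondrial DNA, the process in which Tfam acts, showed no common direction. Of 16, 15 passed the filter on low counts in the comparison of dim with control cells, 8 with a positive and 7 with a negative log2 fold change (median 0.15), and none had an unadjusted p under 0.05. The mitochondrial RNA polymerase Polrmt was 22.4 and 25.4 in dim and 20.4 and 7.68 in control cells. Tfb2m (11.7 and 11 against 14.0 and 4.83), the polymerase Polg (3.24 and 11.3 against 8.15 and 4.83) and the helicase Twnk (22.5 and 12 against 18.4 and 11.7) overlapped between the groups.

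Known targets of PPARα and of ERR differed in their balance of signs. Of 20 PPARα targets, 16 had a positive and 4 a negative log2 fold change in dim against control cells (median 0.29), whereas in bright cells it was 11 and 9 (median 0.02). Without Cpt1b, left out after seeing the data because of the shared exons described below, it was 15 and 4 (median 0.26) in dim and 10 and 9 (median 0.02) in bright cells. Over all 12203 genes of the bright comparison 54.1% were above and 45.9% below 0, with a median of 0.11. Angptl4, an inhibitor of lipoprotein lipase, was 74.8 and 32.4 in dim against 8.69 and 0.569 in control cells (log2 fold change 3.45, SE 1.14, edgeR unadjusted p = 0.020, adjusted p = 0.735). The control value of Mouse_73 for Angptl4 rests on 2 counts. Pdk4 (635 and 216 against 276 and 434), Acot2 (308 and 144 against 168 and 182) and Ucp3 (17.8 and 17.3 against 13.2 and 17.9) overlapped. Cpt1b, the carnitine palmitoyltransferase of muscle, had 0 to 27 counts per sum; 81.4% of its exon bases are shared with another gene model of GENCODE M21, Gm44502, and its counts are not a measure of its level.

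Of 17 ERR and PGC-1 targets, 3 had a positive and 14 a negative log2 fold change in dim against control cells (median -0.12), and 2 and 15 in bright cells (median -0.25). The differences were small for most: cytochrome c (Cycs) was 1146 and 871 in dim against 1293 and 844 in control cells, Idh3a 608 and 682 against 659 and 461, and Mfn2, which fuses mitochondria, 333 and 370 against 437 and 303. The mitochondrial creatine kinase Ckmt2 was 1393 and 1243 against 2077 and 1372 in dim and 1167 and 1085 against 2065 and 1408 in bright cells, and the glucose transporter Slc2a4 was 106 and 75.5 against 168 and 108 in dim cells. The growth factor Vegfa was named after its values were seen. It was the only 1 of these 17 targets with an edgeR unadjusted p under 0.05 in dim cells, against 6.22% of all genes. Its level was 35.2 and 38.0 in dim against 126 and 65.7 in control cells (log2 fold change -1.39, SE 0.47, edgeR adjusted p = 0.735).

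Between bright and dim cells most genes of 3 lists had the lower value in bright cells. Of the partners 14 of 19 did so (median log2 fold change -0.29), of the PPARα targets 17 of 20 (median -0.20; 17 of 19 without Cpt1b) and of the ERR and PGC-1 targets 15 of 17 (median -0.12), against 50.5% of all genes below 0 and 49.5% above (median -0.01). Genes acting on Ppargc1a (8 of 16) and genes for mitochondrial DNA (9 of 16, median -0.15) were more evenly split, and no gene of a list had an unadjusted p under 0.05 here.

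**Figure D4:**
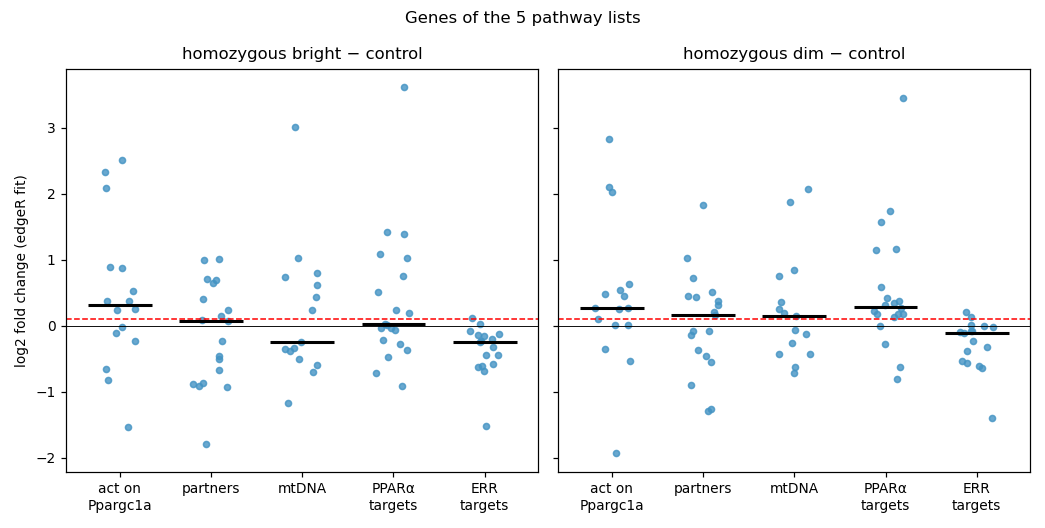
Log2 fold changes of the genes of 5 pathway lists in homozygous bright (left) and dim (right) against control CMs, which share the control mice; points are genes, black bars list medians and the dashed line is the median of all genes tested (0.11 and 0.10). The medians of ERR and PGC-1 targets are -0.25 and -0.12, and no gene shown passed an adjusted p of 0.05.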

How the data were processed

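The authors aligned each hand-picked cell's reads by STAR against a mouse reference extended by the human BAG3 and eGFP transcripts, and deposited raw counts per gene and cell as whole numbers without normalization (STAR's GeneCounts option); bcl2fastq is also named in the submitters' processing notes. Build, annotation and strand setting are not given in the sources used here, so genes that overlap others are uncertain. Cells with little cDNA were left out before sequencing.

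Counts were summed per mouse and class (8 sums), because the mouse is the replicate, and compared in 3 fits of 2 against 2 sums by edgeR's quasi-likelihood test (version 4.0.16, R 4.3.3; glmQLFit and glmQLFTest after filterByExpr and TMM scaling, Benjamini-Hochberg over all genes, threshold 0.05). The standard error is the log2 fold change divided by the square root of the F value. Levels by sum are CPM with TMM factors over all 8 sums. Intervals are exact (Clopper-Pearson for ratios and shares, Poisson for counts, 95%) and cover counting error only. A gene with at most 3 counts in a sum was taken to be at the floor. Bright and dim cells with the same mouse number come from the same animal; over 13439 genes the difference between Mouse_25 and Mouse_116 in bright cells correlated with that in dim cells with r = 0.0819. On simulated data 200 genes were changed. For dim against control cells, over 11969 genes, log2 changes of 2 were found in 100% and changes of 1 in 42%, with 13 false calls. For bright against control cells, over 11962 genes, it was 100% and 30%, with 4 false calls. The simulated counts had a dispersion of 0.05 in every gene, and only genes with a mean above 100 counts were changed. The spread of the real sums was not matched, so these shares do not tell how many changes are found in the real data. Members and lists were chosen with earlier results of these data known. Genes named are the members, preset examples of the lists and the 5 genes most correlated with Ppargc1a over the 8 sums; Vegfa was added after its values were seen, and 1 preset example is not reported here. Alternatives were DESeq2 1.42.0, plain library sizes, no count filter, cells with at least 1000 genes, equal weight per cell (limma 3.58.1, log2 of CPM + 1), all groups in 1 fit, blocks, each mouse left out, and cells thinned to 100000 counts for shares.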

Additional observations from a re-analysis of the deposited data

Results flagged for a closer look

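In Mouse_72 the log2 ratio of Ppargc1a between cells labelled bright and cells labelled dim was 0.24 (normalized CPM), opposite in sign to -0.42 in Mouse_25 and -0.52 in Mouse_116. The same held for Esrra, with -0.19 in Mouse_72 against 0.00185 and 0.67, and for Nrf1, with -0.22 against 1.21 and 0.33. These differences between the heterozygous heart and the homozygous hearts were not tested, since 1 heterozygous mouse was sequenced. The transgene counts of Mouse_72 also ran against its bright and dim labels, and whether its labels are exchanged was not tested.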

How the results depend on the processing

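The number of genes called depended strongly on the fit. For bright against control cells 2 genes were called, and 92 with DESeq2, 163 without a filter, 4 with equal weight per cell, 5 with all groups in 1 fit, 10 with the library set as a block and 0 to 41 when 1 mouse was left out. For dim against control cells 0 were called, and 53, 58, 1, 1 and 12 under the same settings in that order, 1 with equal weight over cells of at least 1000 genes, and 3 to 827 when 1 mouse was left out (827 without control Mouse_26). For bright against dim cells 0 were called, and 91 with DESeq2, 217 without a filter and 2 with equal weight.

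Ppargc1a kept its sign under all alternatives run. In bright against control cells its log2 fold change was -1.81 with library size in place of TMM, -1.95 with equal weight, -1.91 and -2.41 with plate GL9989-2 or GL9989-3 alone for Mouse_116, and -2.21 to -2.05 when 1 mouse was left out. In dim against control cells it passed the threshold with DESeq2 (-1.70), without a filter (-1.62), with the library set as a block (-1.66) and without control Mouse_26 (-1.72), with -1.72 to -1.56 when 1 mouse was left out. In bright against dim cells it was -0.53 to -0.42 when 1 mouse was left out, -1.08 with equal weight and -0.91 with equal weight over cells of at least 1000 genes. With the mouse as a replicate block, which pairs bright and dim cells of the same animal, it was -0.48 (edgeR adjusted p = 1), 0 genes were called and no call changed.

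Other members changed sign under some alternatives. In dim against control cells this was so for Ppargc1b (0.34), Esrra (0.00367) and Perm1 (0.19) with equal weight, Ppara without the dim sum of Mouse_116 (0.094, range -1.61 to 0.094 when 1 mouse was left out), Esrrb (1.05, range -2.72 to 1.05) and Nrf1 (1.71, range -1.92 to 1.71) without control Mouse_26, and Tfam without control Mouse_73 (-0.30) or the dim sum of Mouse_25 (-0.04; range -0.30 to 1.79). In bright against dim cells it was so for Ppargc1b with equal weight (-0.41), with equal weight over cells of at least 1000 genes (-0.29) and on plate GL9989-3 alone (-0.024), for Esrrg on that plate (0.10), and for Esrrb (-0.050) and Perm1 (0.019) on plate GL9989-2 alone. With 1 mouse alone, so without a test, Mouse_116 gave -1.13 for Esrrb, -0.16 for Ppargc1b and 0.0074 for Esrrg, and Mouse_25 gave -0.40 for Tfam. In bright against control cells the sign changed for Esrrb (1.48), Nrf1 (2.32) and Esrra (0.055) without control Mouse_26, for Tfam without control Mouse_73 (-0.17), for Esrra without the bright sum of Mouse_25 (0.025), with plain library sizes (0.15) and with equal weight (0.11, or 0.085 over cells of at least 1000 genes), and for Nrf1 with equal weight (0.031) and with the library set as a block (0.39). Library size in place of TMM moved the median of all genes from 0.11 to 0.41 in bright and from 0.10 to 0.38 in dim against control cells, and leaving out control Mouse_26 moved it to 0.94 and 0.92, so that the values of Esrrb and Nrf1 without that mouse stand against a general shift. Without a filter it was 0.46 and 0.38. The causes were not tested. Precision is limited by 2 mice per group and by control Mouse_73 with 9 cells. The plate and cell-selection alternatives were chosen after seeing the data.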
